A study of Mus musculus with 12 samples.

Results

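The TOX family comprises 4 genes, Tox, Tox2, Tox3 and Tox4, which were taken by symbol from the 32285 genes counted in each library. All 4 were present in the count matrices. Tox (ENSMUSG00000041272) lies on chromosome 4 at 6686353-6991557 of GRCm38.p6, the assembly that mm10 names, and spans 305205 bp. Tox2 (ENSMUSG00000074607) lies on chromosome 2 at 163203058-163324172, Tox3 (ENSMUSG00000043668) on chromosome 8 at 90247110-90349029 and Tox4 (ENSMUSG00000016831) on chromosome 14 at 52279146-52295509. These spans cover exons and introns together, and the counts are per gene, so that no value below is assigned to an exon, an intron or a UTR.

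TOX proteins are nuclear factors that share a single HMG box, a DNA-binding fold. Tox is required for the development of CD4+ T cells, NK cells and other innate lymphoid cells. In CD8+ T cells under lasting antigen stimulation it is induced through calcineurin and NFAT and, with Tox2, sustains the exhausted state. Tcf7 encodes TCF-1, which marks the progenitor-like fraction of such cells and of memory cells. Tox3 is known mainly from neurons and epithelia, and Tox4 is a widely expressed subunit of the PTW/PP1 phosphatase complex.

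The libraries came from B16-F10 melanomas, a transplantable mouse tumour line, grown in the skin of B6.129S7-Rag1tm1Mom/J mice, which lack mature T and B lymphocytes. All mice received Pmel Thy1.1 CD8+ T cells, whose transgenic receptor recognises a melanocyte antigen. In the control group the labelled treatment was vehicle, and in the other group Idelalisib (CAL-101), an inhibitor of the PI3K delta isoform, with 3 libraries each. The labels used here do not say whether CAL-101 was given to the T cells or to the mice, nor the ages of the mice. The tumours were resected and dissociated, live cells positive for CD45.2 were sorted, and RNA and antibody tags were counted per cell. The libraries are called mice below, although nothing in the labels says that each is a separate animal, so p-values measure the spread between these libraries.

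The 6 mice gave 45477 cells, 6152 to 9147 per mouse, with 75716841 to 97933109 RNA UMIs and a median of 6767 to 8977 UMIs per cell. The deposited labels named 32861 T cells (506 of them as CD8+ and 167 as CD4+ T cells), 11687 NK cells, 414 neutrophils, 360 monocytes, 127 dendritic cells, 13 basophils, 8 B cells and 7 progenitors. The joined T cell class held against its markers: Cd3e stood at 343 to 440.1 CPM (UMIs of a gene over all RNA UMIs of the same cells of a mouse, scaled to 1000000) in T cells and at 14.3 to 29.6 CPM in NK cells. The 11 T cell markers summed to 11110 to 13755 CPM in T cells and 1193 to 1564 CPM in NK cells. Cd4, one of these markers, overlapped at 0.261 to 0.749 CPM in T cells and 0.156 to 0.562 CPM in NK cells. Its level in the cells labelled CD4+ alone was not examined. Between 2.17 and 16.6% of the T cells of a mouse lay in the NK cell clusters, and libraries shared 8 to 31 cell barcodes per pair.

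Tox was detected in every abundant class, at levels that differed widely between classes. Over the 6 mice the level of Tox was 437 ± 305 CPM in T cells (SD, n = 6) and 140.0 ± 30.1 CPM in NK cells, followed by monocytes at 81.8 ± 94.8, dendritic cells at 65.5 ± 50.1 and neutrophils at 18.0 ± 24.1 CPM. T cells stood above NK cells in every mouse, whereas the ranges of NK cells (109.7 to 185 CPM) and dendritic cells (0 to 137) overlapped, as did those of the 3 myeloid classes. After each cell was thinned to 1600 UMIs, 37.4% of 30246 T cells and 17.8% of 11022 NK cells held a Tox UMI (61.4 and 40.2% without thinning). In neutrophils, which are not known for Tox expression, 5 of 400 cells did (1.25%, exact 95% binomial interval 0.407 to 2.89%, counting error only). Behind these shares stood a median of 9136 UMIs per T cell, 6694 per NK cell and 3175.5 per neutrophil. The classes and clusters were made from the same RNA values, so these levels are a description.

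The other family members had other distributions. Tox4 varied less between classes than Tox, with pooled levels of 67.4 CPM in NK cells and 72.0 CPM in T cells, 79.7 in monocytes, 93.3 in dendritic cells and 117 in neutrophils. Tox2 was rare, with 353 UMIs in 240 of the 32861 T cells, 16 UMIs in NK cells, 1 in dendritic cells and 0 in the 360 monocytes and the 414 neutrophils. Tox3 gave 6 UMIs in all cells, 3 of them in T cells, and its level could not be compared between groups.

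The first comparison asked how the family differed between T cells of CAL-101 and control tumours. Tox, Tox2 and Tcf7 were higher in all 3 CAL-101 mice, and Tox4 lay slightly higher without passing the test. Tox stood at 157, 189 and 173 CPM in control mice 1, 2 and 3 and at 873, 569 and 658 CPM in CAL-101 mice 1, 2 and 3. The lowest CAL-101 mouse thus lay above the highest control mouse, and Tox rose by a log2 of 1.98 (SE 0.15, edgeR quasi-likelihood, adjusted p = 0.000269) from 173 ± 15.7 to 700.1 ± 156 CPM (SD, n = 3 each). These levels rest on 10275 to 12424 Tox UMIs per control mouse and 46884 to 50894 per CAL-101 mouse. Of the 16734 genes tested in T cells, 19.1% passed the same threshold, 9.46% upward and 9.63% downward, so a call by itself was common in this comparison. In bulk sums of this kind fewer expressing cells and less RNA per cell cannot be told apart; the shares of cells are given further on.

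Tox2, the closest relative of Tox in exhausted T cells, gave 10, 5 and 7 UMIs in control and 156, 49 and 126 UMIs in CAL-101 T cells. Its level of 0.106 ± 0.0183 CPM in control and 1.70 ± 1.18 CPM in CAL-101 T cells did not overlap between the groups and rose by a log2 of 3.88 (SE 0.65, edgeR adjusted p = 0.00623). The CAL-101 mice themselves were uneven, with 2.91, 0.558 and 1.63 CPM. Tox4 stood at 67.3, 65.0 and 67.4 CPM in control mice and at 74.8, 76.6 and 78.7 CPM in the CAL-101 mice. The groups did not overlap, but the log2 difference of 0.17 (SE 0.05) missed the threshold (edgeR adjusted p = 0.0575). Tox3 had 0, 0 and 1 UMI in control and 0, 1 and 1 UMI in CAL-101 T cells. Tcf7 rose from 15.3, 25.7 and 13.7 CPM to 91.7, 65.9 and 63.5 CPM, a log2 of 1.98 (SE 0.24, edgeR adjusted p = 0.00176). Markers of another class moved with these results: the summed level of 11 NK cell markers, all detected, was 1648 to 2545 CPM in control and 675 to 1316 CPM in CAL-101 T cells. The 7 dendritic cell markers summed to 400.4 to 694 CPM and to 216 to 279 CPM in the same groups. The part of these other cells in the results was not tested. Ncr1, a defining NK cell receptor, was at 3.5 to 16.3 CPM in T cells of either group. In the T cells of clusters 1 to 5 the NK cell markers also differed, at 1251 to 1845 CPM in control and 528 to 844 CPM in CAL-101 mice, as did the dendritic cell markers, at 405 to 747 and 216 to 283 CPM. Ncr1 overlapped there, at 0.971, 2.35 and 0.874 CPM in control and 2.18, 0.247 and 0.603 CPM in CAL-101 mice, beside 154 to 238 CPM in NK cells. Klrb1c was apart, at 5.96 to 10.2 and 1.33 to 3.08 CPM, beside 294 to 372 CPM in NK cells. The 11 NK cell markers include Eomes and Xcl1, which also belong to the T cell gene lists used below.

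**Figure D1:**
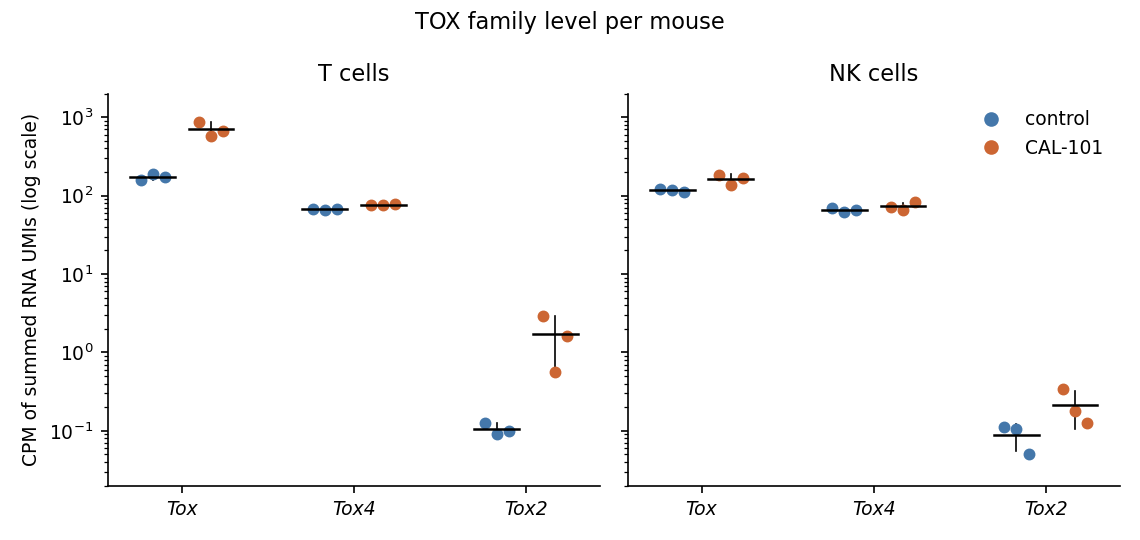
Level of Tox, Tox4 and Tox2 in T cells (left) and NK cells (right), as CPM of summed RNA UMIs on a log scale; each point is 1 mouse, the horizontal line the mean and the vertical line 1 SD (n = 3 per group). In T cells Tox and Tox2 of the CAL-101 mice lie clear of the control mice, Tox4 lies within 65.0 to 78.7 CPM in all 6 mice, and Tox2 in NK cells rests on 1 to 7 UMIs per mouse.

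NK cells, the main host class, were examined as cells that were not transferred. Tox stood at 122, 119 and 109.7 CPM in control mice and at 185, 136 and 169 CPM in the CAL-101 mice. It rose by a log2 of 0.45 (SE 0.09, edgeR adjusted p = 0.0288) in NK cells, where 4.89% of 14028 genes passed, 2.97% upward and 1.92% downward. This call was lost without control mouse 1 or 3 (adjusted p = 0.0914 and 0.132), without CAL-101 mouse 1 or 3 (0.0834 and 0.117) and when the NK cells of clusters 0, 7, 9 and 13 alone were summed (log2 0.32, adjusted p = 0.162). Cd8a was at 15.2 to 24.6 CPM in control and 31.5 to 33.2 CPM in CAL-101 NK cells, and 8 monocyte and macrophage markers summed to 253 to 288 and 173 to 197 CPM. T cell markers were present in the NK sums at 1193 to 1564 CPM over 11 markers in control and 1388 to 1564 CPM in CAL-101 mice, and Cd3e at 14.3 to 24.95 and 24.8 to 29.6 CPM. The summed level of 7 melanoma markers was 4.51 to 5.21 CPM in control and 7.24 to 86.3 CPM in CAL-101 NK cells. The part of these other cells in the Tox difference was not tested. Tox4 was at 68.8, 62.1 and 66.0 CPM in control and 72.1, 65.8 and 81.8 CPM in CAL-101 NK cells (log2 0.13, edgeR adjusted p = 0.387), and Tcf7 had a log2 difference of -0.16 (adjusted p = 0.544). Tox2 had 2, 4 and 1 UMIs in control and 7, 1 and 1 UMIs in CAL-101 NK cells, too few to test.

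The difference of Tox between groups was itself larger in T than in NK cells, by a log2 of 1.53 (SE 0.13, limma adjusted p = 0.0246; 0.727% of 13901 genes passed). Within a mouse, T cells exceeded NK cells by a mean log2 of 0.56 in the control and 2.09 in the CAL-101 group. The same quantity for Tox4 was 0.05 (adjusted p = 0.811). With any of the 6 mice left out the Tox difference stayed between 1.43 and 1.58 but no longer passed (adjusted p = 0.0718 to 0.163).

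Whether the rise of Tox was spread over the T cell states was examined in the deposited clusters. It passed the test in each of the 6 T cell clusters, of which clusters 1 to 5 hold the main states and cluster 6 has cells of few UMIs. In cluster 1, Tox stood at 319.8, 390.2 and 283 CPM in control and 1829, 1001 and 1354 CPM in CAL-101 mice (log2 2.05, SE 0.20, edgeR adjusted p = 0.000149; 11.9% of genes called). In cluster 2, whose cells hold the most UMIs, the values were 156, 155 and 169 against 683, 516 and 574 CPM (log2 1.83, SE 0.11; 12.6% called). In cluster 3 they were 99.7, 117 and 119 against 378, 284 and 360.3 CPM (log2 1.54, SE 0.13; 6.74% called). The groups were apart in every one of these clusters. The summed NK cell markers differed along with Tox in cluster 1 (853 to 1311 against 396 to 589 CPM) and cluster 2 (986 to 1324 against 492 to 769 CPM), overlapped in clusters 3 and 5, and lay narrowly apart in cluster 4 (689 to 1236 against 384 to 683 CPM). In clusters 1, 2 and 4 Ncr1 overlapped between the groups at 0 to 6.52 CPM, whereas Klrb1c was lower in the CAL-101 mice of each. The part of these markers was not tested. Cluster 4 had 289, 355 and 369.8 against 1420.2, 823 and 1002 CPM (log2 1.66, SE 0.17; 8.33% called). Cluster 5 had 345, 358 and 364 against 1019, 678 and 776 CPM (log2 1.17, SE 0.12; 5.25% called). In cluster 6 the values of 38.6, 53.4 and 48.6 against 169, 187 and 187 CPM rest on 8 to 15 and 52 to 74 UMIs (log2 1.96, SE 0.27; 1.25% called). The adjusted p lay under 0.001 in all 6. No cluster of NK cells passed, with log2 differences of 0.30 in cluster 0, 0.37 in cluster 7, 0.62 in cluster 8 and 0.57 in cluster 9 (edgeR adjusted p = 0.0574 to 0.269). In these 4 clusters 4.9, 0.799, 0.0977 and 0.767% of genes were called. Tox4 passed in none of the clusters. Its groups were apart in T cell clusters 1, 2 and 4 and in NK cluster 8, and overlapped in T cell clusters 3, 5 and 6 and NK clusters 0, 7 and 9. How many of all genes were apart in this way was not counted, so no shift of Tox4 is read from it.

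**Figure D2:**
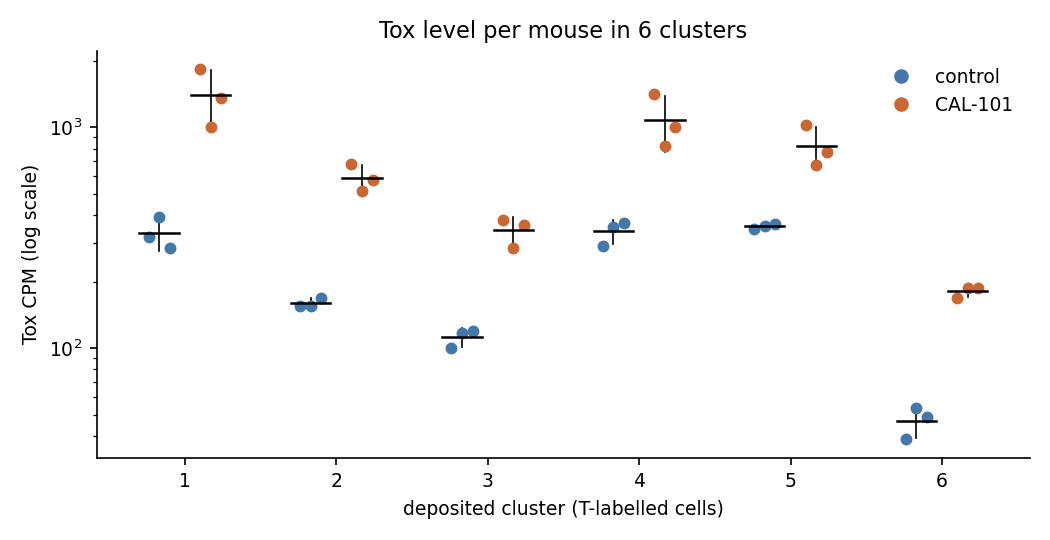
Tox level in the T-labelled cells of deposited clusters 1 to 6, in CPM on a log scale; points are mice, horizontal lines means and vertical lines 1 SD (n = 3 per group). In every cluster the 3 CAL-101 mice lie above the 3 control mice, from 38.6 to 53.4 against 169 to 187 CPM in cluster 6 up to 283 to 390.2 against 1001 to 1829 CPM in cluster 1.

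Among the 12 clusters with at least 20 cells in every mouse, Tox was on average highest in cluster 1 (858 CPM), cluster 4 (709 CPM) and cluster 5 (590 CPM), and these exchanged places: cluster 1 exceeded cluster 4 in 5 of 6 mice and cluster 4 exceeded cluster 5 in 4 of 6. The order differed by group: T-labelled cells had means of 331, 338 and 355 CPM in clusters 1, 4 and 5 of control mice and of 1395, 1082 and 824 CPM in CAL-101 mice. All 3 lay above cluster 2 (375 CPM) in 6 of 6 mice. Clusters 9, 8, 11, 3, 10 and 0 followed at 254 to 178 CPM with no stable order, as each exceeded the next in 3 or 4 of 6 mice. The levels in this ranking cover all cells of a cluster, whatever their label. Clusters 10 and 11 thus include T-labelled cells. In CAL-101 mouse 1 those of cluster 11 were 0.175% of the T cells and held 0.495% of the Tox UMIs of T cells. The part of such cells in the cluster levels was not tested. Clusters 6 (108 CPM) and 7 (81.4 CPM) were lowest. For Tox4 the order ran from 95.7 CPM in cluster 10 to 36.5 CPM in cluster 6, which was lowest in 6 of 6 mice.

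The makeup of the T cells also differed, with cluster 5 holding 3.00, 2.24 and 1.65% of T cells in control and 21.3 to 22.2% in CAL-101 mice. It supplied 4.85 to 7.29% of the Tox UMIs of control and 27.4 to 30.6% of those of CAL-101 T cells. Cluster 3 supplied 17.5 to 28.0% in control and 2.73 to 6.52% in CAL-101 mice. Cluster 2 supplied the largest part in each mouse, 32.5 to 38.3% and 34.7 to 46.9%. Each cluster's share of the RNA UMIs of T cells was then averaged over the mice of a group. Its Tox level was pooled over the same mice. With the UMI shares of control mice and the pooled levels of CAL-101 mice, the T cell level of Tox came to 568 CPM. With CAL-101 shares and control levels it came to 224 CPM, against 172 CPM with control and 677 CPM with CAL-101 values for both. These values have no spread over mice, and the clusters were made from the same RNA values. The part of cluster makeup and of levels within clusters in the difference was not tested. The Tox difference between groups was lower in cluster 5 than in cluster 1 by a log2 of 0.87 and lower than in cluster 2 by 0.67, but neither passed (limma adjusted p = 0.178 and 0.190, with 0.0267 and 0% of genes called). Against clusters 3 and 4 the differences of -0.39 and -0.48 did not pass either (adjusted p = 0.658 and 0.337).

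The scarce myeloid classes were described without a test. Tox in dendritic cells was 24.5 ± 22.6 CPM in control and 107 ± 26.5 CPM in CAL-101 mice, with no overlap. In monocytes it was 19.0 ± 13.2 and 145 ± 102.3 CPM, and in neutrophils 14.5 ± 20.7 and 21.6 ± 31.4 CPM, both with overlap. The 127 dendritic cells held 171 Tox UMIs in 21 cells, the 360 monocytes 195 in 29 cells and the 414 neutrophils 21 in 12 cells. The part of free RNA or of T cell doublets in these values was not tested.

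Co-expression of Tox and Tcf7 was counted per T cell after thinning to 1600 UMIs, which 90.7 to 94.1% of the T cells of a mouse reached. T cells with UMIs of both genes were more frequent in all CAL-101 mice. They made up 0.596, 1.55 and 0.671% of the T cells of control mice 1, 2 and 3 and 9.88, 6.04 and 5.57% of those of CAL-101 mice 1, 2 and 3 (0.939% ± 0.531 against 7.16% ± 2.37). Cells with Tox alone made up 17.5, 22.2 and 20.4% against 52.5, 44.7 and 48.1%, and cells with neither gene 79.9, 73.1 and 77.0% against 32.7, 45.1 and 42.1%. Cells with Tcf7 alone, the share with the smallest difference, made up 2.02, 3.15 and 1.94% against 4.97, 4.12 and 4.14%. None of the 4 shares overlapped between the groups, and each gave an exact 2-sided permutation p of 0.1, the smallest that 3 mice against 3 allow. Without thinning the Tcf7-only share lay the other way, at 5.08% in control and 3.20% in CAL-101 mice, while the share with both genes was 7.22 and 28.8%. In NK cells the thinned share with both genes was 1.38% ± 0.0663 and 1.86% ± 0.170 (SD, n = 3 each).

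**Figure D3:**
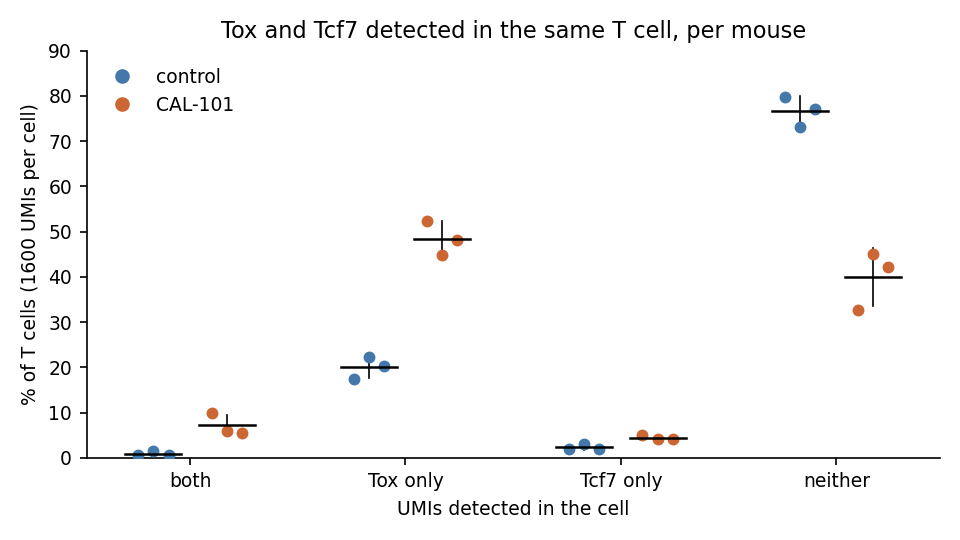
Percentage of T cells with UMIs of both Tox and Tcf7, of Tox alone, of Tcf7 alone or of neither, each cell thinned to 1600 UMIs; points are mice, horizontal lines means and vertical lines 1 SD (n = 3 per group). The share with both genes is 0.596 to 1.55% in control and 5.57 to 9.88% in CAL-101 mice, and the share with neither is 73.1 to 79.9% and 32.7 to 45.1%.

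Within a mouse the 2 genes were detected together slightly more often than independent detection would give, at 0.596% of T cells against 0.474% in control mouse 1 and 9.88% against 9.26% in CAL-101 mouse 1. The log2 odds ratio of Tox and Tcf7 detection was 0.44 ± 0.17 (SD, n = 6) and lay above 0 in 6 of 6 mice (exact sign-flip permutation p = 0.03125, the smallest that 6 mice allow). Tcf7 was detected in 4.33% ± 1.90 of the Tox+ and 3.02% ± 0.962 of the other T cells of control mice, and in 12.7% ± 2.83 and 10.2% ± 2.63 of those of CAL-101 mice. Read the other way, Tox was detected in 27.1% ± 5.26 of the Tcf7+ T cells of control and in 61.1% ± 4.82 of those of CAL-101 mice. Its group means were 0.51 in control and 0.37 in CAL-101 mice and overlapped (exact permutation p = 0.4, where 0.1 is the smallest possible). In clusters 1 to 5 alone the groups were apart, at 0.77 against 0.37, and without thinning they were apart the other way, at 0.93 against 1.61 (exact p = 0.1 each). Stratified by clusters 1 to 5 it was 0.37 ± 0.29, again above 0 in 6 of 6 mice. At 1000 UMIs per cell (0.39, exact p = 0.0625) and in cells of 5000 to 20000 UMIs alone (0.48, exact p = 0.09375) it no longer reached 0.05.

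The relation was also described in single clusters, with no test between them and with 0.5 added to each count. In cluster 4 the log2 odds ratio was 1.06 ± 0.97 and above 0 in 6 of 6 mice (exact sign-flip p = 0.03125). Its groups were apart, at 1.78 ± 0.85 in control and 0.33 ± 0.30 in CAL-101 mice. Control mice there had 6, 12 and 9 cells with both genes. In cluster 3 the ratio was -0.94 ± 1.81 and above 0 in 2 of 6 mice (exact sign-flip p = 0.3125). It rests on 4, 0 and 9 cells with both genes in control and 0, 1 and 2 in CAL-101 mice. Clusters 1, 2 and 5 had 0.20, 0.35 and 0.39, above 0 in 4, 5 and 5 of 6 mice (exact p = 0.28125, 0.3125 and 0.1875). The groups were apart in cluster 5 too, at 0.80 ± 0.74 in control and -0.02 ± 0.28 in CAL-101 mice. Cells with both genes were scarce in cluster 3 in either group, at 0.224% ± 0.231 and 0.206% ± 0.241, while cells with Tox alone made up 13.8% ± 1.19 and 33.5% ± 4.59 without overlap (exact p = 0.1). In cluster 5 they made up 3.95% ± 0.707 and 9.44% ± 2.67. At the level of sums, Tcf7 rose in clusters 1, 2, 4 and 5 by a log2 of 1.91, 2.25, 2.22 and 0.70 and did not pass in clusters 3 and 6 (0.41 and 1.10, edgeR adjusted p = 0.547 and 0.463).

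Cells were also arranged by their number of Tox UMIs at 1600 UMIs. In control mice 79.0% of T cells had 0, 13.2% had 1 and 1.51% had 4 or more; in CAL-101 mice the shares were 44.4, 23.3 and 11.6%. The share with a Tcf7 UMI was 3.02% ± 0.962 at 0 Tox UMIs, 5.22% ± 2.41 at 2 and 5.06% ± 0.977 at 4 or more in control mice. In CAL-101 mice it was 10.2% ± 2.63, 13.4% ± 2.69 and 16.5% ± 3.55. At 3 Tox UMIs the share was 5.66% ± 5.03 in control and 12.1% ± 3.41 in CAL-101 mice, so the means of neither group rose at every step. Thus at every number of Tox UMIs the mean share with Tcf7 was higher in the CAL-101 group. Pdcd1, which encodes the inhibitory receptor PD-1, was detected in 23.4% of cells without Tox UMI and 20.6% of those with 4 or more in control mice, and in 24.8 and 26.8% in CAL-101 mice. Havcr2, which encodes TIM-3, was detected in 11.4 and 8.23% in control and 8.87 and 6.25% in CAL-101 mice. The cells with many Tox UMIs had fewer UMIs in all before thinning, with a median of 10603 at 0 and 4999 at 4 or more Tox UMIs in control and 12244 and 5400 in CAL-101 mice. The part of depth in these shares was not tested.

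**Figure D4:**
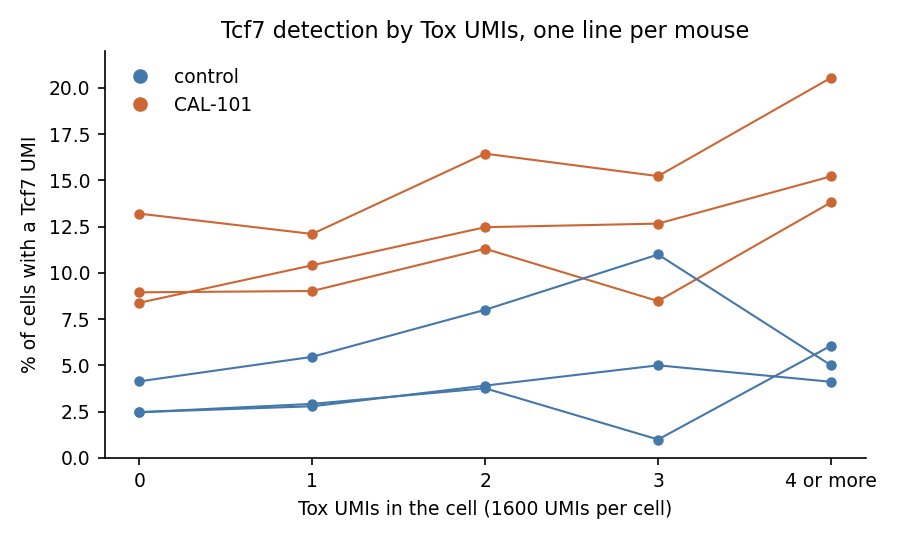
Percentage of T cells with a Tcf7 UMI against the number of Tox UMIs in the cell (0, 1, 2, 3, 4 or more), each cell thinned to 1600 UMIs; each line joins the values of 1 mouse. The CAL-101 means run from 10.2% at 0 to 16.5% at 4 or more Tox UMIs and the control means from 3.02% to 5.06%. Neither rises at every step, with 12.1% in CAL-101 and 5.66% in control mice at 3 Tox UMIs.

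The genes whose levels followed those of the family most closely were taken from 30 sums of T cells, 1 per mouse and cluster 1 to 5, over 6179 genes with a mean of at least 20 CPM. The sums share mice, clusters and library depth, so the Pearson correlations of log2(CPM + 1) are a description across sums that are not independent. Tox was followed most closely by Tent5c (r = 0.949), Chd3 (0.938), Fgf13 (0.934), Ikzf2 (0.929), Pakap (0.929), Immp2l (0.920), Trerf1 (0.920) and Adk (0.919). Ikzf2 encodes the zinc finger factor Helios, and Chd3 a chromatin remodeller. Tcf7 stood at rank 29 (r = 0.871). Within the control sums alone the values for the first 8 lay between 0.760 and 0.904 and within the CAL-101 sums between 0.825 and 0.953. Tox4 was followed less closely, by Cmah (0.874), Itgb7 (0.845), Rnf213 (0.845), Pml (0.840), Nt5e (0.837), Lax1 (0.837), Slfn8 (0.834) and Ifih1 (0.833). Tox2 and Tox3, at 0.977 and 0.011 CPM over these sums, lay under the minimum.

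T cells of clusters 1 to 5 with a Tox UMI at 1600 UMIs were then compared with those without one, within each mouse. There were 789 to 2974 cells with and 1135 to 4191 cells without a Tox UMI per mouse. Tcf7 and Tox2 were higher in the Tox+ cells, and the largest decreases included the granzyme genes Gzmb to Gzmf. Of 16103 genes, 30.2% passed (12.7% higher and 17.5% lower in Tox+ cells), so the background of calls was high. Tcf7 was at 19.4, 26.9 and 18.3 CPM in Tox+ cells of control mice against 12.3, 18.8 and 9.28 CPM in the other cells. In CAL-101 mice it was at 102.4, 79.3 and 70.9 CPM against 80.8, 53.9 and 54.5 CPM. It was thus higher in the Tox+ cells of each mouse, by a log2 of 0.45 (SE 0.05, edgeR with a mouse term, adjusted p = 2.66e-06). Tox2 was higher in 5 of 6 mice (log2 1.10, SE 0.21, adjusted p = 0.000429), at 1.32 ± 1.67 against 0.557 ± 0.616 CPM, and Tox4 did not pass (0.03, adjusted p = 0.492).

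The genes that were most higher in Tox+ cells were St6galnac3 (log2 0.79), Igkc (0.78), which encodes an immunoglobulin light chain, Trerf1 (0.76), Vav3 (0.63), Btla (0.62), Aff3 (0.59), Sntb1 (0.56) and Gpm6b (0.55), each in 6 of 6 mice but for Igkc in 5. St6galnac3, a sialyltransferase gene, was at 243 ± 63.1 against 133 ± 25.9 CPM (SD, n = 6), and Btla encodes an inhibitory receptor. The genes that were most lower were Gzmf (-1.66), Gzmc (-1.60), Gzme (-1.37), Gzmd (-1.23), Ccl1 (-1.13), Serpinb9b (-1.09), Ifitm1 (-0.88) and Gzmb (-0.87), each in 6 of 6 mice. Granzymes are the proteases of cytotoxic granules. Gzmb was at 1379, 792 and 1398 CPM in Tox+ cells of control mice against 2584, 1477 and 2284 CPM in the other cells, and at 464, 693 and 732 against 819, 1189 and 1235 CPM in CAL-101 mice. Gzmc was at 391 ± 266 against 1012 ± 536 CPM. Reads of the neighbouring granzyme genes Gzmc to Gzmf may be split by the counting, so their separate values are uncertain. Within cluster 5 alone, where control mice 1, 2 and 3 had 57, 29 and 38 Tox+ cells, 170 genes passed. Several of these calls were lost. There Tcf7 had a log2 difference of 0.03 (adjusted p = 0.929), Aff3 0.05 (0.853), Gzmd -0.08 (0.958), Gzme -0.41 (0.806) and Serpinb9b -0.62 (0.400). Tox2 kept a difference of 1.05 without passing (0.139), and Ccl1 turned to 0.59 (0.312).

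Cluster, depth and gene length differed along with Tox detection. Cluster 3 held 15.1 to 25.95% of the Tox+ and 29.4 to 39.9% of the other cells of control mice, and 3.11 to 6.86% and 9.25 to 17.1% in CAL-101 mice. Cluster 1 held 25.1 to 39.8% of the Tox+ and 15.6 to 27.6% of the other cells, and more of the Tox+ cells in each mouse. The median cell had 6220 to 9977.5 UMIs before thinning with and 10541 to 13662 UMIs without a Tox UMI, and the mitochondrial share was 4.62 to 6.45% against 3.97 to 5.02%. The median annotated span was 73.1 kb for the genes that were higher, 11.045 kb for those that were lower and 22.029 kb for all genes tested, with a span found for 91.1 to 97.9% of each set. Their part in the differences was not tested. In cells of 5000 to 20000 UMIs alone 2805 genes passed.

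Surface proteins were compared between the same cells by their share of the antibody tags. Each antibody carries a 15-base barcode that is read in the sequencer. The barcodes of the 6 antibodies on which this comparison turns are shown as the identity of what was counted, 5′ to 3′ and with no part singled out by capitals.
CD279 (PD-1): gaaagtcaaagcact
CD366 (TIM-3): attggcactcagatg
Ly108 (the product of Slamf6): cgattctttgcgagt
CD73 (the ectoenzyme product of Nt5e): acacttaacgtctgg
CD49d (integrin alpha 4): cgcttggacgcttaa
CD25 (IL-2 receptor alpha chain): accatgagacacagt

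Of the antibodies 26 passed (25.5% of the panel), 7 higher (6.86%) and 19 lower (18.6%) on Tox+ cells. CD25 made up 0.889, 1.36 and 0.931% of tags on Tox+ cells of control mice against 1.16, 1.58 and 1.202% on the others, and 0.820, 0.634 and 0.614% against 1.12, 0.803 and 0.890% in CAL-101 mice. It was thus lower in 6 of 6 mice (log2 -0.42, SE 0.04, edgeR with a mouse term, adjusted p = 0.000539). CD366 was lower in 6 of 6 mice as well, at 1.14% ± 0.186 against 1.31% ± 0.230 (log2 -0.25, SE 0.02, adjusted p = 0.000382), and so was Havcr2 RNA (log2 -0.36, adjusted p = 3.67e-07). The other lower proteins with the largest differences were CD49b (-0.39), CD11c (-0.34), CD98 (-0.30), CD371 (-0.29) and CD61 (-0.29), followed by CD357, which is GITR (-0.19). CD44 passed with a small difference (-0.08) and was lower in 4 of 6 mice. Its call was lost without control mouse 2 or CAL-101 mouse 2 (adjusted p = 0.0510 and 0.0714), at 4000 UMIs (0.0559), without the 6% of cells with most UMIs (0.135) and in cells of 5000 to 20000 UMIs (0.556). CD11c lost its call without control mouse 1, 2 or 3 or CAL-101 mouse 1 (0.0584 to 0.0902), at 4000 UMIs (0.0543) and in cells of 5000 to 20000 UMIs (0.0890). In the last setting CD357 did not pass either (0.0887). CD98 is an amino acid transporter chain. CD11c stood at 1.17 and CD371 at 2.00 times the highest of the 7 isotype controls, close to the background of the panel.

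CD73 was the protein with the largest called increase on Tox+ cells, at 0.274% ± 0.164 against 0.220% ± 0.124 of tags (log2 0.25, edgeR adjusted p = 0.0126). Its RNA Nt5e was also higher (log2 0.45, 6 of 6 mice). CD49d followed at 3.59% ± 1.02 against 3.03% ± 0.857 (log2 0.20, adjusted p = 0.0275). CD200 (0.17), CD86 (0.17), CD20 (0.11), CD31 (0.09) and CD304 (0.06) completed the higher set, each in 6 of 6 mice. Several of these calls were lost in other fits. Of the 6 fits with a mouse left out, CD200 passed in the 1 without control mouse 2 (adjusted p = 0.0622 to 0.0999 in the others). CD31 did not pass without control mouse 1 or 3 or CAL-101 mouse 1 or 3 (0.0664 to 0.0906), nor CD49d without control mouse 1 or CAL-101 mouse 1 or 3 (0.0511 to 0.0868). CD20 did not pass at 4000 UMIs (0.0785). In cells of 5000 to 20000 UMIs CD73 (log2 0.20, adjusted p = 0.108) and CD31 (0.138) did not pass. Ly108 was higher in 6 of 6 mice but did not pass (log2 0.75, SE 0.37, adjusted p = 0.243), with 0.642% of tags on Tox+ cells of CAL-101 mouse 2 and 0.0642 to 0.160% in the other 5 mice. Without that mouse Ly108 passed at a log2 of 0.39 (adjusted p = 0.00465). Without the cells of over 20000 tags it passed at a smaller log2 of 0.32 (adjusted p = 0.00187), and Slamf6 RNA was higher by 0.46 (adjusted p = 9.67e-06). In control mice Ly108 made up 0.0755, 0.0743 and 0.0642% of tags on Tox+ cells. The highest isotype control stood there at 0.0743, 0.0727 and 0.0792%, so Ly108 lay near the background of the panel in these mice. Over the 6 mice Ly108 stood at 2.60 and CD38 at 2.32 times that isotype control. The called CD73 and CD31 stood at 3.65 and 3.50 times. PD-1 protein was at 1.18% ± 0.188 against 1.12% ± 0.136 of tags and did not pass (log2 0.03, adjusted p = 0.388), as did Pdcd1 RNA (-0.02, adjusted p = 0.721). In the same cells of 5000 to 20000 UMIs PD-1 protein passed at a log2 of 0.12 (adjusted p = 0.0271). CD38 (0.32, adjusted p = 0.474) and LAG-3, counted as CD223 (-0.03, adjusted p = 0.446), did not pass. None of the protein differences was called different between the groups by limma, and 9 had an unadjusted p under 0.05. Within cluster 5 alone no antibody passed in edgeR, with 57, 29 and 38 Tox+ cells in control mice 1, 2 and 3. Some differences kept their size there, as for CD73 (log2 0.32), CD200 (0.36) and CD357 (-0.21). Others did not, as for CD98 (-0.12) and CD366 (0.03).

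**Figure D5:**
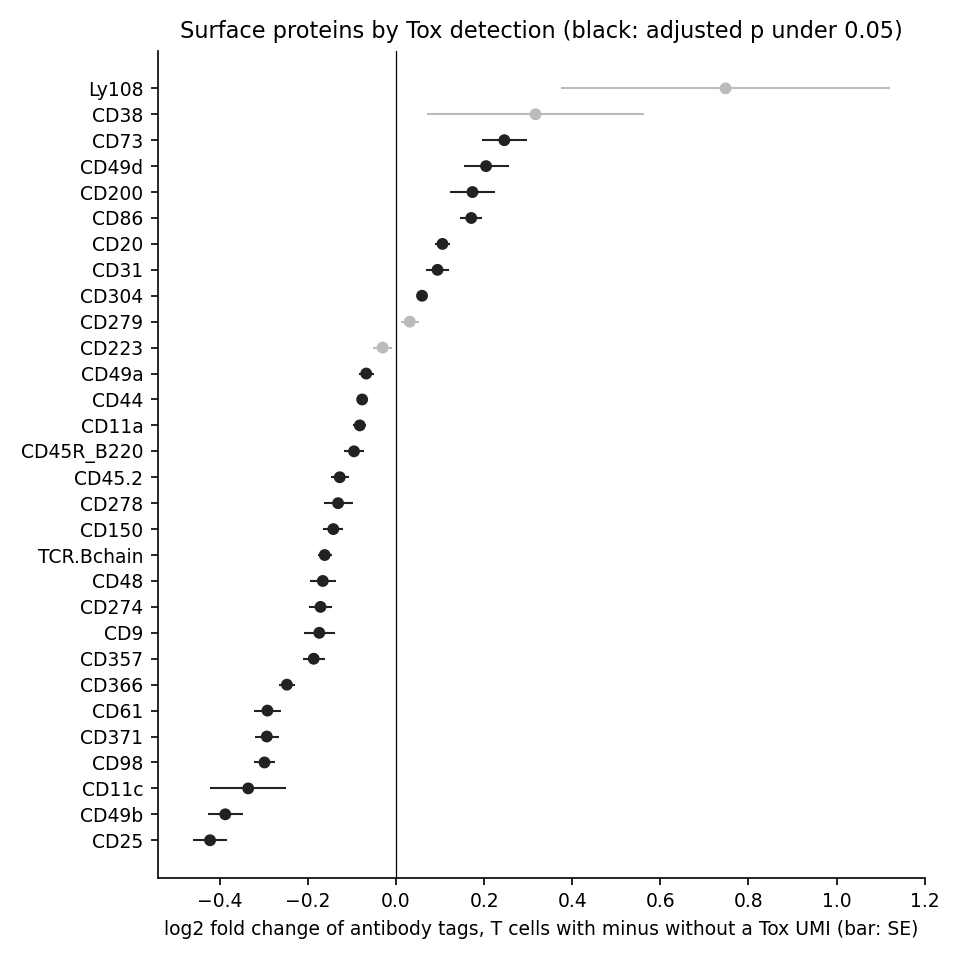
Log2 fold change of the share of antibody tags in T cells with minus without a Tox UMI, clusters 1 to 5, for the 26 antibodies that passed (black) and 4 others named in the text (grey); bars are 1 SE (6 mice). CD25 lies lowest at -0.42, CD73 is the highest black point at 0.25, and PD-1 (CD279) lies at 0.03.

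The genes around the family were followed by lists. Of the calcineurin and NFAT genes, the pathway upstream of Tox, 1 of 11 tested rose and 1 fell in CAL-101 T cells: Cabin1, an inhibitor of calcineurin, rose by a log2 of 0.21 (SE 0.05, edgeR adjusted p = 0.0311) and Ppp3ca, its catalytic subunit, fell by 0.26 (SE 0.06, adjusted p = 0.0247). The list's median of -0.10 stood beside 0.00 for all genes. Of the NR4A, IRF4, BATF and AP-1 genes 5 of 16 rose and 2 fell (median 0.09). Batf, a factor of effector and exhausted cells, rose from 33.1 ± 3.27 to 72.2 ± 15.8 CPM (log2 1.08) and Jun by 0.37, whereas Irf8 fell by 0.79 and Irf4 fell by 0.31. Of the inhibitory receptors and ectoenzymes 5 of 15 rose and 3 fell (median 0.08): Cd200 rose by 1.72, Nt5e by 1.48 and Cd101 by 0.61, and Lag3 fell by 0.43. Pdcd1, at 194 ± 25.02 and 208 ± 4.75 CPM, did not pass (0.06, adjusted p = 0.671).

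Most of the 15 genes listed for progenitor exhausted cells passed, but in both directions: 7 rose and 5 fell (median 0.28). Id3, an inhibitor of E proteins, rose from 2.21 ± 0.382 to 16.3 ± 3.93 CPM (log2 2.85, SE 0.19), and Cxcr5, at 1.35 and 3.10 CPM, rose by 1.16. Bach2, which restrains effector genes, fell from 637 ± 34.4 to 405 ± 40.5 CPM (log2 -0.69). Of the effector and terminal factors 3 of 15 rose and 4 fell (median -0.15): Ikzf2 rose by 1.19 and Ikzf3 by 0.68, while Zeb2 fell by 1.14 and Runx1 fell by 0.89. Tox recruits the HBO1 acetyltransferase complex, of which 1 of 10 genes, Meaf6, rose (log2 0.30, adjusted p = 0.00899; median -0.01). In the PTW/PP1 complex of Tox4, 2 of 5 genes rose, Wdr82 by 0.26 and Ppp1cc by 0.21 (median 0.11). Of the other genes listed with an HMG box 4 of 21 rose and 2 fell (median 0.09), with Hmgb2 at 0.42, Tfam at 0.36 and Hbp1 at -0.49 beside Tcf7. Hmgn1, also counted there as risen, belongs to the HMGN proteins, which have no HMG box. Read against the 19.1% of all genes called, the counts of the HBO1 and calcineurin lists were near or under the background.

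In NK cells the calls were spread unevenly over the lists. None of the 11 calcineurin and NFAT genes, of the 10 HBO1 and of the 5 PTW/PP1 genes was called by edgeR. Beside 4.89% of all genes called, no call in lists this short is near the background. The progenitor list had 2 genes that rose and 2 that fell of 15, and the HMG box list 3 and 1 of 21, both above that background. In each of the NR4A, inhibitory and effector lists 1 gene passed, Jund (log2 -0.44), Cd200 (1.28) and Ikzf2 (0.50). These 3 were chosen for naming after their values were seen. Between Tox+ and other T cells, 4 of 11 calcineurin and NFAT genes, 8 of 16 NR4A, IRF4, BATF and AP-1 genes, 6 of 15 inhibitory, 7 of 15 progenitor and 5 of 15 effector genes were higher. In the same order 1, 3, 2, 3 and 2 genes were lower. Of the HBO1 list 2 were higher and 0 lower, of the PTW/PP1 list 1 and 1, and of the HMG box list 4 and 8, beside 12.7% of all genes higher and 17.5% lower.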

How the data were processed

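RNA and antibody tags of sorted tumour leukocytes were measured in 6 libraries (12 sample records). The values are whole UMI counts per gene and cell, which per the file headers the authors made in Cell Ranger 7.1.0, with mm10 and Seurat named in the submitters' processing notes. Clusters and cell type labels are those deposited. The sources used here do not give how doublets were treated or whether intronic reads were counted, and leaving out the cells with the most UMIs was an alternative.

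The T cell, CD8+ and CD4+ labels were joined into 1 T cell class. UMIs were summed per mouse and class or cluster, since cells are not replicates. The sums were fitted in R 4.3.3 by edgeR 4.0.16 (quasi-likelihood F test, TMM factors, filterByExpr, at least 20 cells per mouse) on group alone, p adjusted after Benjamini and Hochberg and 0.05 as the threshold. Tox+ and other T cells were compared with the mouse as a term, as both sums come from the same library. Differences of effects used limma 3.58.1 on log2 CPM with a prior count of 2. Shares were computed in Python 3.11.15 on cells thinned to 1600 UMIs and compared by exact permutation over the 20 assignments of mice. The edgeR fit was run on counts simulated with the same dispersion for every gene and changes planted in genes of over 20 CPM. That run does not bear on genes as rare as Tox2 or on the noise between these libraries. Counts of same-group libraries differed beyond sampling noise (chi-square over its degrees of freedom 8.61 to 45.5).

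The members and gene lists were chosen with earlier results of these data known. Named are the family, Tcf7, up to 4 genes of each list by smallest p in T cells, the 8 largest called changes each way by Tox status with a mean of at least 20 CPM (leaving out ribosomal, mitochondrial, Gm and Rik entries), the same of antibodies with a few exhaustion markers, and the 8 closest genes by correlation. CD39 protein was not analysed here. Pdcd1, Havcr2, Slamf6 and Nt5e RNA beside their proteins, Hmgn1 and the genes named in NK cells were added after their values were seen. DESeq2 1.42.0, other filters, depths and cell sets, a replicate block and leaving out each mouse were alternatives; cells of 5000 to 20000 UMIs and the odds ratio stratified by cluster were chosen after seeing the data. Gene positions came from the RefSeq table of GRCm38.p6, which matched 32158 of the gene identifiers, and the antibody barcodes from the deposited feature table.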

Additional observations from a re-analysis of the deposited data

Results flagged for a closer look

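The difference of Tox between the groups was itself different in T and NK cells. The CAL-101 minus control difference was larger in T cells by a log2 of 1.53 (SE 0.13, limma adjusted p = 0.0246, 6 mice), and this test of the difference is why it is given here. T cells exceeded NK cells in every mouse, by a mean log2 of 0.56 in control and 2.09 in CAL-101 mice. Leaving out any mouse ended the call, with values of 1.43 to 1.58. T cell markers in the NK sums and NK cell markers in the T cell sums are given with the results, and their part was not tested.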

How the results depend on the processing

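The rise of Tox in T cells and in each T cell cluster kept its direction and call under all alternatives run. Whether equal numbers pair a control with a CAL-101 mouse is not given by the labels. The r of deviations was -0.25, -0.24 and 0.01 for equal numbers and -0.13 to 0.29 for unequal ones. The deviations were centred within each group of 3 mice, so these values cannot decide the pairing. With a replicate block 1532 genes were called in T cells in place of 3194, and the Tox difference between T and NK cells stayed at 1.53 but did not pass (adjusted p = 0.124). Without the mouse term (no replicate block) 18 genes and 0 antibodies were called by Tox status. In cells of 5000 to 20000 UMIs the calls were 1632 in T cells, 2805 genes by Tox status and 15 antibodies. In cluster 5 alone they were 170 genes and 0 antibodies; there Ccl1 (0.59) and CD366 (0.027) changed sign, as did CD223 (0.0070, without the 6% of cells with most UMIs 0.0123, in 5000 to 20000 UMIs 0.0417). Without those 6% of cells Tox4 passed in T cells (0.18, adjusted p = 0.0462).

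In NK cells, clusters 0, 7, 9 and 13 alone gave a Tox difference of 0.32 and 213 calls, and no filter gave 1323 calls in place of 686. Tox passed in NK cluster 0 by DESeq2 (0.30) and without filter (0.28), in cluster 7 without filter (0.36) and in cluster 8 by both (0.61). The difference of cells with both Tox and Tcf7 UMIs was 3.31 percentage points at 1000, 13.9 at 4000 UMIs and 21.5 without thinning. Without thinning it was 13.1 points for Tox alone and -1.87 for Tcf7 alone, and 0.013 for Tcf7 alone at 4000 UMIs. The log2 odds ratio was 0.39 at 1000 UMIs and 0.48 in cells of 5000 to 20000 UMIs. Its difference between groups was 0.68 without thinning, -0.40 in clusters 1 to 5, -0.60 in cells of 5000 to 20000 UMIs and -0.37 stratified by cluster. The cause of these changes was not tested.

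Leaving out 1 mouse at a time gave a Tox difference of 1.79 to 2.11 in T cells, with 1429 (without control 3) to 3850 calls (without control 2). In NK cells it gave 0.37 to 0.55, with 4 (without CAL-101 3) to 1589 calls (without control 2). In NK cluster 0 it gave 0.23 to 0.38, in NK cluster 7 0.26 to 0.59 and for T against NK cells 1.43 to 1.58. Tox2 and Tox3 are limited by depth, with 353 and 3 UMIs in all T cells.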
